A study of Mus musculus with 12 samples.

Results

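The comparison described here sets the stomach of Spdef knockout (KO) mice against the stomach of Spdef heterozygous (HET) mice, and asks which gland, endocrine and immune genes differ once the remaining copy of Spdef is lost. It rests on 4 of the 12 arrays of the series, chosen by the genotype and tissue given in their titles: stomach KO 1 and 2, and stomach HET 1 and 2. The mice of all groups were C57BL/6, untreated and 16 weeks old, and RNA was taken from frozen tissue and read on Affymetrix mouse expression arrays, on which each transcript is measured by a set of short probes. The KO mice carried no intact copy of Spdef by their label, the HET mice kept 1 copy, and 2 stomach arrays of wild type (WT) mice and 4 colon arrays of KO and HET mice serve as further points of comparison. The labels describe neither the targeted allele nor its deleted part, do not name the part of the stomach, and do not give either the sex of the mice or whether each array had its own animal. The p-values below therefore measure only the spread between these samples.

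Spdef is an ETS family transcription factor of mucus-producing and other secretory epithelial cells. In the intestine it acts downstream of the commitment to the secretory lineage and promotes the maturation of goblet cells, and in the stomach it is known from the mucous cells of the antral glands. The stomach joins a squamous forestomach, a corpus with acid-secreting parietal cells and enzyme-secreting chief cells, and an antrum with mucous glands and gastrin cells, so bulk tissue can hold all of these together with muscle, fat, nerve and immune cells.

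All levels are log2(intensity + 16) after quantile normalization over the 12 arrays, and a difference is KO minus HET on that scale. The offset of 16 understates the change of dim genes. A gene was tested when it reached the filter level of 6.53 in at least 2 of the 6 stomach arrays, which 7858 of 11807 genes did. The 2 KO arrays correlated at 0.981 over the tested genes and the 2 HET arrays at 0.968. Array KO 2 stood apart in Xist, the RNA that silences an X chromosome in females, with 12.77 in KO 1 and 7.49 in KO 2, against 12.68 and 12.71 in the HET arrays, while the 3 Y-linked genes measured, Eif2s3y, Kdm5d and Uty, lay below the filter level on every stomach array. The submitters' processing notes name RMA for both stomach KO arrays and MAS5 for both HET arrays, so processing and genotype cannot be told apart in that respect. An exact permutation test of 2 arrays against 2 cannot give a p below 0.333, so single values were tested only in a limma model that pools the spread of all 12 arrays.

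The targeted gene, Spdef, lies on chromosome 17. Its only probe set read 8.86 and 8.63 in the KO arrays, against 9.06 and 8.94 in the HET arrays, with 9.19 and 8.96 in the WT arrays. The KO arrays lay below the HET arrays without overlap, by 0.26 (SE 0.54, 95% confidence interval of the difference -1.48 to 0.97), and the limma test was not passed (adjusted p = 0.9999). Where these probes lie relative to the deleted part is not known, so the signal left in the KO arrays does not check their labels.

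Creb3l4 was the gene that fell. It encodes a member of the OASIS family, transcription factors that are held in the membrane of the endoplasmic reticulum (ER) and released by cleavage, and lies on chromosome 3. Its level was 5.20 and 5.84 in the KO arrays, against 8.54 and 8.54 in the HET arrays, and it was 8.66 and 8.60 in the WT arrays. Both KO arrays were below the filter level, and the HET arrays stood beside the WT arrays. The difference was -3.02 (SE 0.32, 95% confidence interval -3.73 to -2.31, limma adjusted p = 0.0294), which is at least a 4.03-fold decrease when the KO level is set at the filter level. In bulk tissue, fewer cells of a type and less RNA per cell cannot be told apart, and this holds for every gene below. The call was lost in 6 of 17 alternative settings. These were the fits without KO 1 (difference -2.70, limma adjusted p = 0.188), KO 2 (-3.34, adjusted p = 0.12) or HET 1 (-3.02, adjusted p = 0.259), and those with the replicate number as a block (adjusted p = 0.0966), an offset of 64 (adjusted p = 0.083) or the deposited values (adjusted p = 0.0531).

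The sequences just upstream of Creb3l4 and of Cgref1, a goblet gene described below, are shown because Creb3l4 was the gene called in stomach and both were called in colon. Both are 250 base windows ending at the most upstream gene start in RefSeq's annotation of GRCm38.p6, on the minus strand, at chr3:90243513-90243762 for Creb3l4 and at chr5:30945481-30945730 for Cgref1. Capitals mark GGAT, the core of the ETS site that Spdef is known to prefer, or its reverse complement ATCC.
Creb3l4: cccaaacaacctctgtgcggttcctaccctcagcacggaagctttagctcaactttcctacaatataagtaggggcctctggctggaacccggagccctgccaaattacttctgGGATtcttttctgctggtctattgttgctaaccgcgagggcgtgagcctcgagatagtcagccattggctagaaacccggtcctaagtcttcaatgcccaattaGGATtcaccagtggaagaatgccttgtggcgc
Cgref1: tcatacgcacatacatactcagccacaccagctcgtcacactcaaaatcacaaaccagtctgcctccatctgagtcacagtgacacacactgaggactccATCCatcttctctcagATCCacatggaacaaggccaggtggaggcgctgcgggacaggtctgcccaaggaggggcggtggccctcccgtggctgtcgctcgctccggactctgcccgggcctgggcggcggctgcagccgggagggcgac
The Creb3l4 window held 2 copies of GGAT and 0 of ATCC, and the Cgref1 window held 0 of GGAT and 2 of ATCC. Of 32851 such windows over 27025 genes, 74.13% held at least 1 copy on either strand and 42.15% held at least 2. The other windows of Creb3l4, at its 2 further starts, held 0 and 3 copies. These are matches of letters and not measured binding.

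Across all genes, the comparison gave few calls and, among the genes that passed the filter, a lopsided set of large differences. Creb3l4 was the only gene of 7858 past the limma threshold (0.0127%), and 151 genes (1.92%) had an unadjusted p under 0.05, 91 of them lower (1.16%) and 60 higher (0.764%). The KO arrays lay below both HET arrays for 1058 genes (13.5%) and above both for 1462 (18.6%), and the median difference of all tested genes was 0.01. Differences of at least 1 without overlap were found for 77 genes lower in KO (0.980%) and for 4 genes higher in KO (0.0509%). Of the 77, 57 had both KO arrays below the filter level, so they were tested only through HET and WT arrays. Without the filter, 177 of 11807 genes were lower and 78 higher by at least 1 without overlap, a smaller imbalance. Of the 77, 9 were in the list of squamous epithelium genes, 7 in the liver list and 4 in the goblet list. The nearest KO and HET arrays were at least 1 apart for 22 genes lower in KO (0.280%) and for 0 higher (0.00%).

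**Figure D1:**
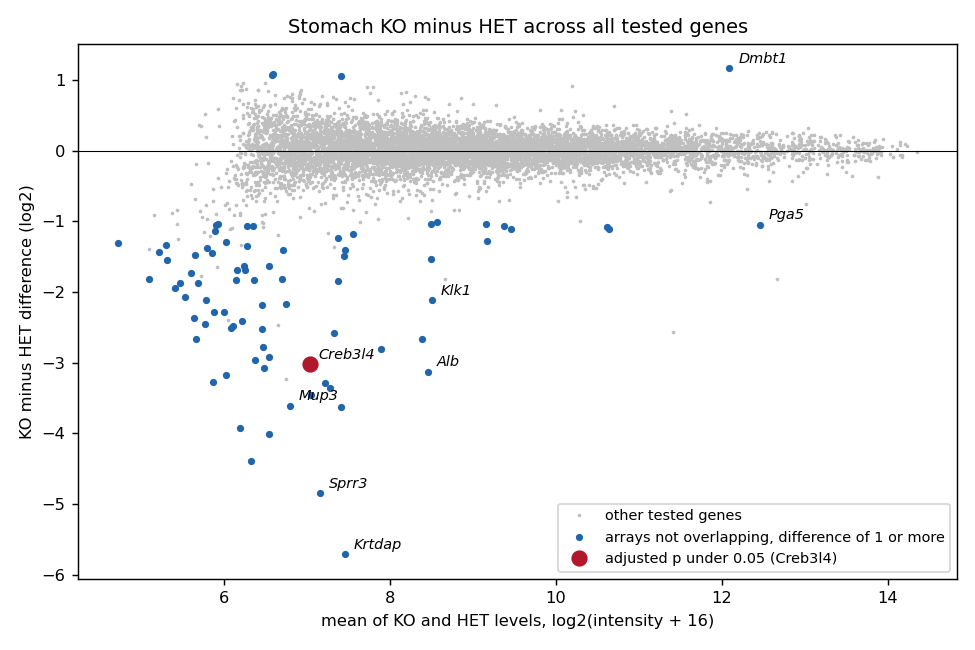
KO minus HET difference in stomach (vertical axis, log2) against the mean level of the 4 arrays (horizontal axis, log2(intensity + 16)) for the 7858 tested genes. Blue points are the 77 lower and 4 higher genes with non-overlapping arrays and a difference of at least 1, and the red point is Creb3l4 at -3.02.

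The 4 genes higher by at least 1 were Dmbt1, described below, Plekhh3, Bmp1 and Sostdc1. Plekhh3 had 7.53 and 6.73 in the KO arrays, against 6.09 and 6.01 in the HET arrays, a difference of 1.08. Bmp1, a procollagen-processing protease, differed by 1.07 with its brightest probe set. Its other probe sets gave -0.41 and 0.27. Sostdc1, a secreted inhibitor of BMP and Wnt signals, had 7.77 and 8.09 in the KO arrays, against 6.57 and 7.19 in the HET arrays, a difference of 1.05 that its other probe set gave as 0.81. Just under 1 lay Kif22, a mitotic kinesin, with 7.02 and 6.93 in the KO arrays, against 6.26 and 5.78 in the HET arrays, and Pign, an enzyme of GPI anchor synthesis, at 0.96. The other probe sets of both genes gave lower means in KO, at -0.45 for Kif22 and -0.35 to -0.15 for Pign, and none of these genes passed the limma threshold. Among the 10 smallest p was also Lyl1, a transcription factor of blood-forming cells, with 5.61 and 5.13 in the KO arrays, against 6.66 and 6.67 in the HET arrays (unadjusted p = 0.00259, limma adjusted p = 0.9999). Its KO arrays lay below the filter level and its HET arrays just above it.

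Among genes of mucus-secreting goblet cells, more were lower than higher in KO stomach when set against HET. Of 22 tested genes on the goblet list, which includes Creb3l4 and Spdef, 14 lay below both HET arrays (all genes 13.5%) and 3 above both (all genes 18.6%), with a median difference of -0.23. The list holds 8 genes taken from earlier colon results of the same series. Without those and Creb3l4, 13 genes remained, of which 8 were lower and 3 higher without overlap, with a median of -0.26. The targeted gene Spdef was still among the 13 and counted as lower, and the median was its own value. The mean level of these 13 genes was 9.11 and 8.77 in the KO arrays, against 9.41 and 9.67 in the HET arrays. It was 8.95 and 9.46 in the WT arrays, so KO 1 lay above WT 1. Over the whole list it was 8.60 and 8.42 in KO, 9.03 and 9.21 in HET, and 8.82 and 9.08 in WT. The median of the whole list was -0.36 without KO 1 and -0.16 without HET 2. Only Creb3l4 passed the test, so the values that follow are descriptions.

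Cgref1, a secreted calcium-binding growth regulator, had 8.36 and 8.46 in the KO arrays, against 9.37 and 9.13 in the HET arrays, with 9.0 and 9.34 in the WT arrays. The KO arrays were the lowest of the 6, and the difference was -0.84 (SE 0.19, unadjusted p = 0.00123, limma adjusted p = 0.9999). A further probe set of the gene gave -1.18. Ern2, the ER stress sensor of mucous epithelia, had 8.48 and 8.22 in the KO arrays, against 9.13 and 9.26 in the HET arrays, with 9.62 and 8.87 in the WT arrays. This is a difference of -0.85 (SE 0.62) with KO again lowest. Hgfac, a serine protease that activates hepatocyte growth factor, had 6.99 and 6.98 in the KO arrays, against 7.65 and 7.66 in the HET arrays, with 7.56 and 7.67 in the WT arrays. Its arrays fell into a KO pair and a HET and WT cluster, with a difference of -0.67 (SE 0.64).

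Among secreted goblet products, Clca1, Spink4, Fcgbp and Klk1 were lower in KO without overlap and Tff3 was higher, and none passed the limma threshold. Clca1, a mucus-processing protease, had 8.94 and 8.12 in the KO arrays, against 9.63 and 9.99 in the HET arrays, while the WT arrays read 9.12 and 11.38. Spink4, a protease inhibitor of goblet granules, had 10.20 and 9.39 in the KO arrays, against 10.45 and 11.13 in the HET arrays. For both genes KO 1 lay farther from KO 2 than from the nearest HET array. Fcgbp, a mucin-associated protein, read 4.57 and 4.91 in the KO arrays, against 6.15 and 7.91 in the HET arrays, with 4.63 and 7.97 in the WT arrays. Its WT arrays spanned the KO and HET levels. Klk1, a tissue kallikrein that frees kinins, had 8.47 and 6.43 in the KO arrays, against 9.63 and 9.50 in the HET arrays, with 5.32 and 6.07 in the WT arrays. Both KO arrays thus lay above WT and below HET, with a KO minus HET difference of -2.12 (SE 0.75) and -1.67 with its other probe set. The goblet peptide Tff3 had 7.23 and 6.58 in the KO arrays, against 6.51 and 6.35 in the HET arrays, a difference of 0.47.

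Regulators of the goblet lineage gave no call. Creb3l1, the OASIS relative of Creb3l4, had 9.09 and 9.05 in the KO arrays, against 9.38 and 9.56 in the HET arrays, a difference of -0.40. The forkhead factors Foxa3 and Foxa2 differed by 0.17 and 0.00, and Agr2, the disulfide isomerase of mucin folding, by -0.21. The lineage-determining factor Atoh1 and the goblet lectin Zg16 were not tested in stomach because they stayed under the filter.

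**Figure D2:**
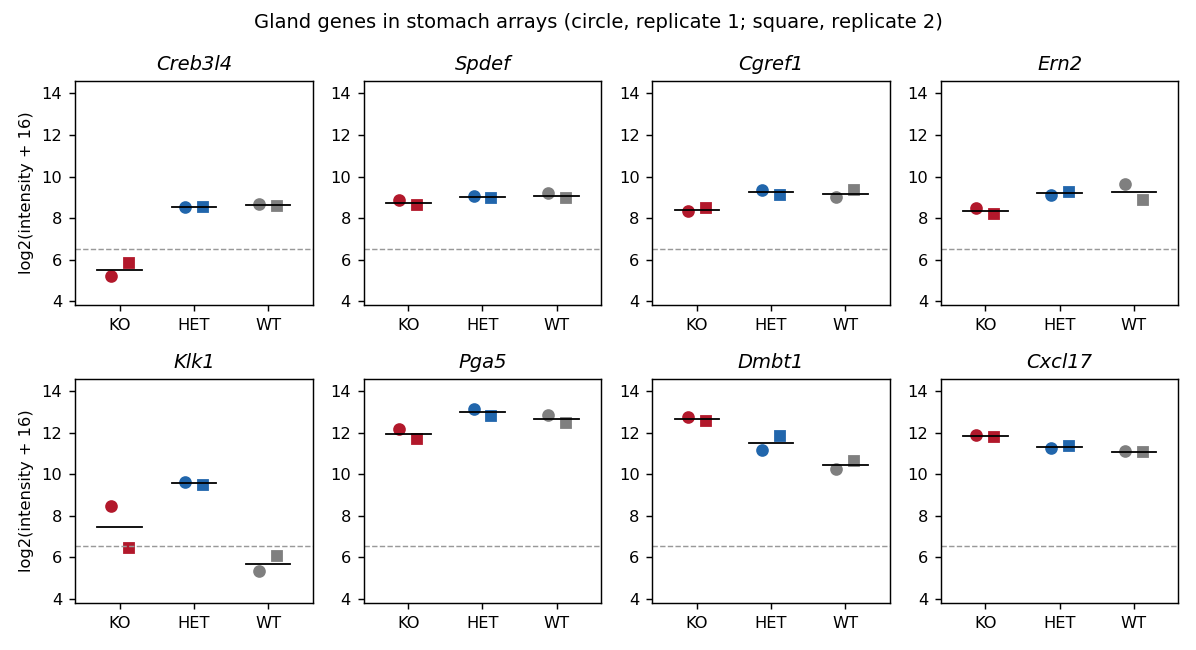
Levels of 8 gland genes in each stomach array, as log2(intensity + 16), with KO at the left, then HET and WT. Circles are replicate 1, squares replicate 2, lines the group mean, and the dashed line the filter level of 6.53. Creb3l4 lies at 5.20 and 5.84 in KO stomach, against 8.54 in both HET arrays.

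Genes of the antral and neck glands and of the surface mucous cells gave no call. Of 7 tested antral and neck genes, 0 lay below both HET arrays and 3 above both, beside 13.5% and 18.6% of all genes, with a median of 0.09. Dmbt1, a scavenger receptor protein secreted by mucosal epithelia, had 12.77 and 12.57 in the KO arrays, against 11.15 and 11.85 in the HET arrays, with 10.27 and 10.65 in the WT arrays. The groups did not overlap and were ordered KO, HET, WT from high to low, with a KO minus HET difference of 1.17 (SE 0.60, unadjusted p = 0.0825, not past the limma threshold). Cxcl17, a mucosal chemokine, had 11.88 and 11.78 in the KO arrays, against 11.26 and 11.37 in the HET arrays, with 11.10 and 11.07 in the WT arrays, a difference of 0.52 in the same order. The trefoil peptide Tff2 of neck and antral mucous cells read 13.70 and 13.79 in the KO arrays, against 13.69 and 13.93 in the HET arrays, and overlapped, and Bpifb1, a secreted lipid-binding protein, differed by 0.09. Of 12 surface mucous genes, 0 were lower and 3 higher without overlap, again beside 13.5% and 18.6% of all genes, and all differences lay between -0.16 and 0.24. The 3 higher were the forkhead factor Foxq1 at 0.24, the vesicle protein Sytl2 at 0.21 and the sulfotransferase Sult1c2 at 0.05. The mucosal protein Gkn1 differed by -0.05. The gastric mucin Muc5ac had 13.88 and 13.85 in the KO arrays, against 13.93 and 13.82 in the HET arrays.

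The proton pump genes of parietal cells overlapped between the groups, and Pga5 had the widest difference of the chief cell genes. The proton pump subunit Atp4a had 13.82 and 13.82 in the KO arrays, against 13.67 and 13.95 in the HET arrays, and its partner Atp4b differed by -0.06. Of 12 parietal genes, 3 were lower (the water channel Aqp4, the gastrin receptor Cckbr and the potassium channel Kcnq1) and 1 higher without overlap, beside 13.5% and 18.6% of all genes, with no difference beyond 0.30 in size. Pga5, which encodes a pepsinogen of chief cells, had 12.18 and 11.68 in the KO arrays, against 13.14 and 12.82 in the HET arrays, with 12.85 and 12.44 in the WT arrays. The KO arrays were the lowest of the 6, by -1.05 against HET (SE 0.23, unadjusted p = 0.00112) and by -0.72 against WT, and neither passed the limma threshold. The other pepsinogen, Pgc, overlapped with 14.25 and 14.25 in the KO arrays, against 14.07 and 14.25 in the HET arrays. Intrinsic factor (Cblif) differed by -0.06 and the chitinase Chia1 by 0.08.

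Among genes that fold and glycosylate secreted proteins, Creb3l4 gave the only call. Of 43 tested genes of the ER secretory machinery and unfolded protein response, 11 were lower and 5 higher without overlap, beside 13.5% and 18.6% of all genes, with a median of -0.04. Beside Creb3l4 and Ern2 the largest was Creld2, an ER stress-induced factor, with 9.92 and 9.80 in the KO arrays, against 10.25 and 10.49 in the HET arrays. The chaperone Hspa5 differed by -0.22 and the unfolded protein response factor Xbp1 by 0.14. The OASIS relatives Creb3, Creb3l2 and Creb3l3 differed by -0.12, 0.04 and 0.05 and their arrays overlapped. Of 18 genes for mucin O-glycan synthesis, 5 were lower and 3 higher (13.5% and 18.6% of all genes), with a median of -0.02. The widest were the sialyltransferase St6galnac6 at -0.63, the sulfotransferase Chst4 at 0.52 and the initiating enzyme Galnt6 at -0.26, while the core enzyme C1galt1 and its chaperone C1galt1c1 differed by 0.02 and -0.06. All 4 tested genes of chemosensory tuft cells overlapped, the kinase Dclk1 at 0.18 and the cation channel Trpm5 at 0.36 among them.

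**Figure D3:**
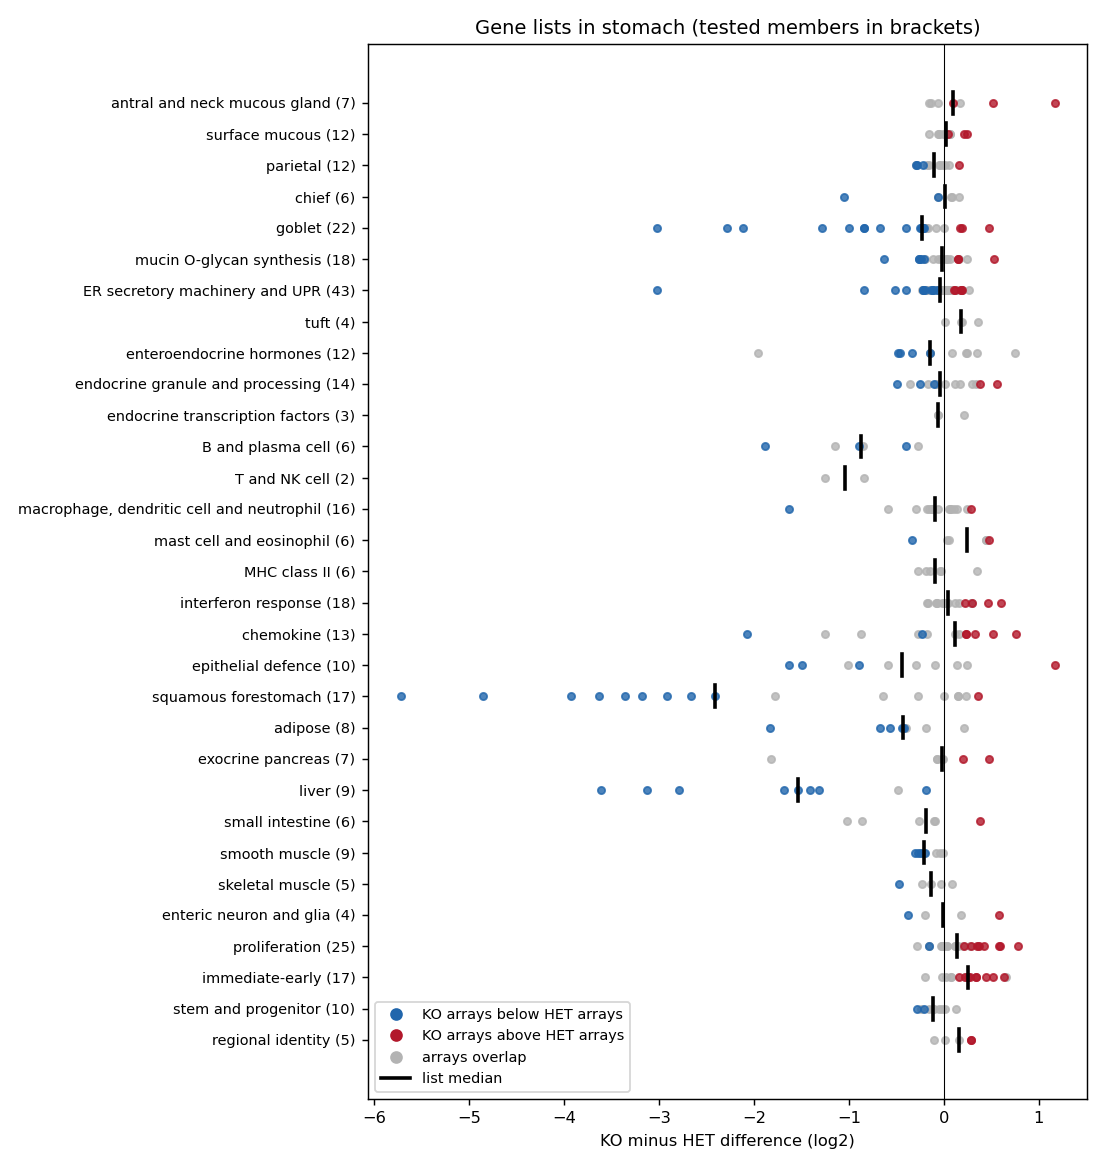
KO minus HET difference in stomach (horizontal axis, log2) for each tested gene of the gene lists, 1 row per list with the number of tested genes in brackets. Blue points have both KO arrays below both HET arrays, red points both above, grey points overlap, and black bars are list medians; the lowest median is that of the squamous list, at -2.41.

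Endocrine genes gave no call. Of 12 tested hormone and transmitter genes, 4 were lower and 0 higher without overlap, beside 13.5% and 18.6% of all genes, with a median of -0.14. Their differences ran from -1.96 for gastrin, whose arrays overlapped, to 0.75. Gcg, the glucagon precursor, had 6.51 and 6.59 in the KO arrays, against 7.09 and 6.98 in the HET arrays, with 7.53 and 7.17 in the WT arrays. The KO arrays were the lowest, by -0.49 against HET (SE 0.19, unadjusted p = 0.0324, not past the limma threshold). Ghrl, the ghrelin gene of the oxyntic glands, had 13.52 and 13.54 in the KO arrays, against 13.69 and 13.67 in the HET arrays, a gap of -0.14. Ddc, the decarboxylase of amine synthesis, differed by -0.46. Hdc, the histamine-forming enzyme of enterochromaffin-like cells, differed by -0.34 with the probe set used and by 0.10 with the other.

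Gast, the gastrin gene of antral G cells, was uneven within HET and within WT. It read 4.14 and 4.68 in the KO arrays, against 4.61 and 8.13 in the HET arrays, with 4.58 and 9.04 in the WT arrays. It was above the filter level only in HET 2 and WT 2. Somatostatin (Sst), which D cells make in corpus and antrum, read 12.10 and 12.23 in the KO arrays, against 12.02 and 12.59 in the HET arrays, and overlapped. Among 14 genes of hormone granules and processing, 3 were lower and 2 higher without overlap (13.5% and 18.6% of all genes), with a median of -0.04. Chga, the classical endocrine marker, differed by -0.16 and overlapped. Chgb, a granule protein, had 10.25 and 9.92 in the KO arrays, against 10.61 and 10.55 in the HET arrays. The vesicle priming factor Cadps and the granule membrane protein Ptprn were higher, by 0.55 and 0.38, and none of these passed the limma threshold. The endocrine lineage factors Neurod1, Isl1 and Foxa1 all overlapped, and Neurog3 was under the filter.

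Immune genes gave no call, and the lymphocyte genes were uneven within HET and within WT. Ccl20, the chemokine that draws dendritic cells and lymphocytes to mucosal epithelium, had the smallest unadjusted p after Creb3l4. It read 4.30 and 4.70 in the KO arrays, against 6.68 and 6.46 in the HET arrays, with 6.54 and 6.03 in the WT arrays. The KO arrays lay apart from the other 4, by -2.07 against HET (SE 0.33, unadjusted p = 0.000113, limma adjusted p = 0.445). Only HET 1 and WT 1 reached the filter level, so Ccl20 was tested only through arrays outside KO, which favours a lower KO value. The HET mean of 6.57 was itself close to the filter level, so the measured fold is only at least 1.03, with no fold left without HET 1, since HET 2 was under that level. Of 13 chemokines, 2 were lower and 5 higher without overlap (13.5% and 18.6% of all genes). Both KO arrays were below the filter level for 5 of the 13. Among the higher was Cx3cl1, a ligand for monocytes and T cells, at 0.76, which its other probe set gave as -0.49.

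All 6 tested genes of B and plasma cells had lower means in KO, with a median of -0.87, and 3 of them lay below both HET arrays (13.5% of all genes). The median rested on HET 1, being -0.32 without it and -1.63 without HET 2. Cd79b, a subunit of the B cell receptor, read 4.88 and 4.61 in the KO arrays, against 7.53 and 5.72 in the HET arrays, with 5.80 and 7.78 in the WT arrays. It was high in HET 1 and WT 2. Of 12 measured genes on the list, only these 6 were tested, and 4 of the 6 had both KO arrays below the filter level. Those 4 were tested only through HET and WT arrays, so the filter favours lower KO values among them. Derl3, an ER protein of secretory cells, differed by -0.40 without overlap, and Jchain, the joining chain of IgA, by -0.28 with overlap. The B cell genes Ms4a1 and Cd79a and the T cell genes Cd3g and Ccl5 had the same pair of high arrays, and their KO and HET values overlapped. Cd3e and Cd3d, subunits of the T cell receptor complex, were under the filter. Glycam1, a mucin-like ligand made by lymph node vessels and named here for its size after its values were seen, had 4.09 and 4.36 in the KO arrays, against 10.54 and 4.47 in the HET arrays, with 4.11 and 10.73 in the WT arrays. Over the B and plasma cell list, the mean level was 6.05 and 6.12 in the KO arrays, against 7.61 and 6.38 in the HET arrays, with 6.10 and 7.61 in the WT arrays. The part of lymphoid tissue in the Ccl20 and Pigr values was not tested.

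Pigr, the receptor that carries IgA across epithelium, had 6.53 and 6.87 in the KO arrays, against 8.78 and 7.60 in the HET arrays, with 7.23 and 6.86 in the WT arrays. The KO arrays were below HET and level with WT 2, with a difference of -1.49 (SE 0.37, unadjusted p = 0.00253, not past the limma threshold) and -1.0 with the other probe set. The calcium-binding neutrophil protein S100a9 differed by -1.63, with 5.20 and 6.25 in the KO arrays, against 8.30 and 6.41 in the HET arrays. Of 16 genes of macrophages, dendritic cells and neutrophils, 1 was lower and 1 higher without overlap (13.5% and 18.6% of all genes), with a median of -0.09. The higher was Csf1r, a macrophage growth factor receptor, at 0.29, and the macrophage marker Cd68 differed by 0.07. All 6 tested MHC class II genes overlapped, with H2-Aa at -0.19 and H2-Ab1 at -0.15. Of 6 mast cell and eosinophil genes, 1 was lower and 1 higher without overlap, the receptor Kit at 0.47, and the mast cell protease Cpa3 differed by 0.05. Of 18 interferon response genes, 0 were lower and 4 higher, near the 18.6% of all genes above both HET arrays, with a median of 0.04. Oas2, Ifit1 and Ifit3, all induced by interferon, differed by 0.60, 0.47 and 0.30. The epithelial chemokine Ccl28 and the antimicrobial lectins Reg3g and Reg3b were under the filter.

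**Figure D4:**
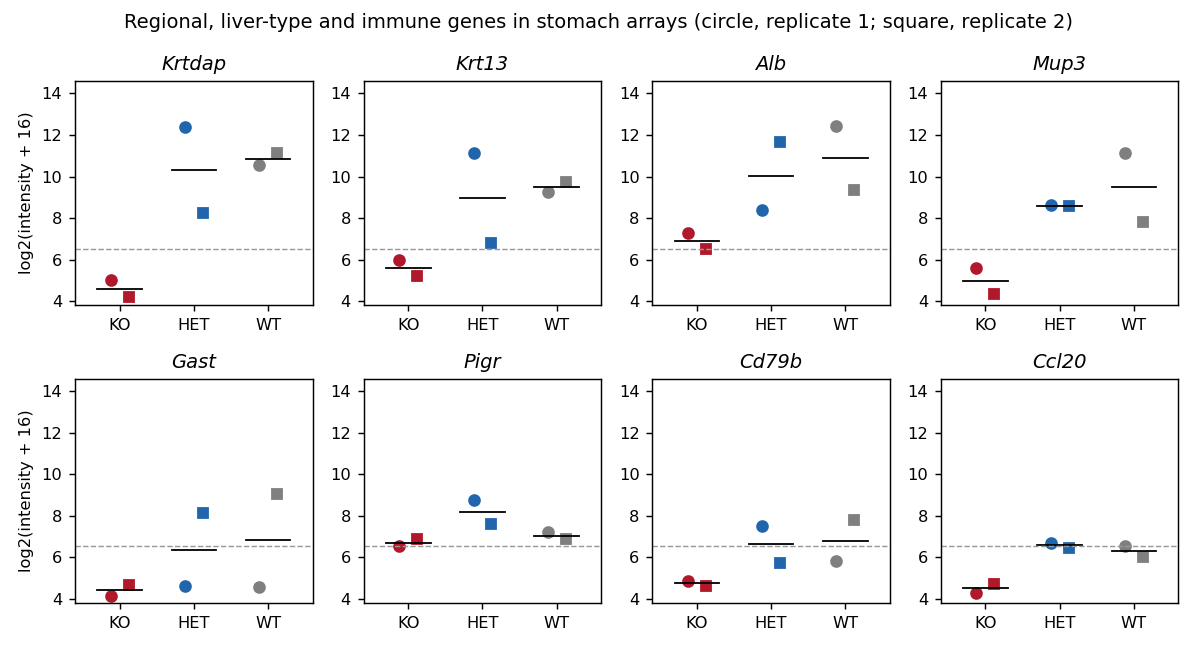
Levels of 8 regional, liver-type and immune genes in each stomach array, as log2(intensity + 16), with KO at the left, then HET and WT. Circles are replicate 1, squares replicate 2, lines the group mean, and the dashed line the filter level of 6.53. Krtdap lies at 5.0 and 4.20 in KO stomach, against 12.38 and 8.25 in HET stomach, and Gast is high only in HET 2 and WT 2.

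The widest differences belonged to genes of squamous epithelium, the lining of the forestomach. Krtdap, a secreted protein of differentiating keratinocytes, had 5.0 and 4.20 in the KO arrays, against 12.38 and 8.25 in the HET arrays, with 10.54 and 11.12 in the WT arrays. Both KO arrays were under the filter level and all 4 others above it, a difference of at least 13.8-fold (limma adjusted p = 0.662). That bound rests on HET 1, being at least 3.29-fold without it and at least 57.7-fold without HET 2. Sprr3, a cornified envelope precursor, had 4.43 and 5.04 in the KO arrays, against 11.54 and 7.62 in the HET arrays, and Mt4, a metallothionein of stratified epithelium, had 4.26 and 4.21 in the KO arrays, against 9.83 and 6.49. For all 3 genes HET 1 lay farther from HET 2 than HET 2 lay from the nearest KO array. The esophageal and forestomach keratin Krt13 had 5.98 and 5.22 in the KO arrays, against 11.13 and 6.79 in the HET arrays, and Krt1, a keratin of cornified epithelium, had 5.53 and 5.65 in the KO arrays, against 11.07 and 7.37.

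Of 17 tested squamous genes, 9 were lower and 1 higher without overlap (13.5% and 18.6% of all genes), with a median of -2.41, which was -1.19 without HET 1 and -3.62 without HET 2. All 9 were lower by at least 1, beside 0.980% of all genes. Of the 17, 10 had both KO arrays below the filter level and were tested only through HET and WT arrays. The mean over the list was 7.22 and 7.20 in the KO arrays, against 10.38 and 8.10 in the HET arrays, with 8.87 and 9.64 in the WT arrays. Not all listed genes followed: Sprr1a, Sprr2a1, the desmosome plaque gene Dsp and Fabp5 were bright on every stomach array and overlapped. Among gene families, 7 of 9 tested late cornified envelope (Lce) genes were lower by at least 1 without overlap (0.980% of all genes), as were 4 of 16 keratins and 2 of 6 small proline-rich (Sprr) genes. In these family counts too, the filter favours lower KO values for genes tested only through HET and WT arrays. Without HET 2, 21 genes passed the limma threshold instead of 1, all lower in KO. They included Creb3l4, Krtdap, Sprr3, Mt4 and the cornified envelope genes Rptn and Lor, and without HET 1 there were 0.

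Genes typical of liver differed in the same direction with another pair of high arrays. Of 9 tested liver genes, 8 were lower without overlap (13.5% of all genes), with a median of -1.54. Of the 9, 4 had both KO arrays below the filter level and were tested only through HET and WT arrays. Alb, the albumin gene, had 7.26 and 6.53 in the KO arrays, against 8.39 and 11.66 in the HET arrays, with 12.41 and 9.36 in the WT arrays. Mup3, a major urinary protein, had 5.61 and 4.36 in the KO arrays, against 8.63 and 8.57 in the HET arrays, with 11.16 and 7.81 in the WT arrays. Serpina1b, a plasma protease inhibitor, had 4.95 and 5.20 in the KO arrays, against 7.29 and 8.43 in the HET arrays. The KO arrays were the lowest for Alb and Mup3, and HET 2 and WT 1 the highest for Alb. The list mean was 6.85 and 6.71 in the KO arrays, against 7.87 and 9.28 in the HET arrays, with 10.18 and 8.11 in the WT arrays. The list median was -2.52 without HET 1 and -1.02 without HET 2. All 3 fibrinogen chains and all 3 tested Serpina1 genes were lower by at least 1 without overlap, beside 0.980% of all genes. The fibrinogen chain Fgg (KO mean 4.19) and Serpina1b had both KO arrays below the filter level. They were tested only through HET and WT arrays, so the filter favours lower KO values in these counts.

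Of 8 tested fat genes, 5 lay below both HET arrays and 0 above both (13.5% and 18.6% of all genes), and 3 overlapped. Of the 8, 2 had both KO arrays below the filter level, Ucp1 among them, and were tested only through HET and WT arrays. None of the 8 passed the test, and their median of -0.43 was -0.30 without HET 2 and -0.69 without HET 1. Ucp1, the uncoupling protein of brown fat, had 4.53 and 5.93 in the KO arrays, against 7.07 and 7.05 in the HET arrays, with 7.08 and 7.85 in the WT arrays. Adipoq, the adipocyte hormone gene, had 8.65 and 8.81 in the KO arrays, against 9.11 and 9.69 in the HET arrays, with 10.32 and 10.78 in the WT arrays. The means of both genes were ordered KO, HET, WT from low to high. Car3, an adipocyte carbonic anhydrase, differed by -0.57 and the fatty acid carrier Fabp4 by -0.42. Of 9 smooth muscle genes, 4 were lower and 0 higher without overlap (13.5% and 18.6% of all genes), with a median of -0.21. Among them Myl9, Des and Actg2 differed by -0.30, -0.28 and -0.24, while Acta2 and Myh11, at -0.04 and -0.25, overlapped. Exocrine pancreas genes had a median of -0.02, with the elastase Cela1 at 0.48. The other single markers were the muscle kinase Ckm at -0.47 and the muscle actin Acta1 at -0.23, the neuronal genes Uchl1 at 0.58 and Snap25 at -0.38, the brush border peptidase Anpep at 0.38, the apolipoprotein Apoa1 at -0.10 and the globin Hba-a1 at 0.25. How far the amount of forestomach, liver, fat or lymphoid tissue in a sample moved the gland, endocrine and immune values above was not tested.

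The same contrast in colon shares no array with the stomach and was tested against it. The labels do not say whether both tissues came from the same mice, and Xist differed by -2.57 in stomach and -3.41 in colon. In colon, Creb3l4 had 6.09 and 6.16 in the KO arrays, against 9.30 and 9.02 in the HET arrays, a difference of -3.03 (limma adjusted p = 0.0177). It was 1 of 2 genes past the threshold among 7913 tested in colon (0.0253%), beside Cgref1, and 328 (4.15%) had an unadjusted p under 0.05. The stomach minus colon difference for Creb3l4 was 0.01 (SE 0.45, unadjusted p = 0.981). Over 7378 genes tested in both tissues, 0 passed the limma threshold for a difference between tissues (0.00%), and 140 (1.90%) had an unadjusted p under 0.05. The colon WT arrays are on neither side of this contrast, but they enter the normalization, the colon filter and the pooled spread. With all of these redone without both colon WT arrays, 2 of 7284 genes passed. Their stomach minus colon differences were 2.295 for Tesc, a calcium-binding protein, and 2.573 for Rap1gap.

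Cgref1 had 9.04 and 9.40 in the colon KO arrays, against 11.15 and 11.19 in the colon HET arrays, and its decrease there passed the test (-1.95, limma adjusted p = 0.0135), while its stomach value of -0.84 did not. The difference between the tissues was 1.11 (SE 0.26, limma unadjusted p = 0.00192), which did not pass after adjustment. Cgref1 is set out here for its colon call, a choice that can enlarge this difference. Rap1gap, a GTPase activator, differed by -0.24 in stomach and -2.80 in colon, and Tpd52l1 by -0.22 in stomach and -2.23 in colon. Both came to the goblet list from the colon results, so their larger colon values within that list are no evidence of a tissue difference. In the test over all genes, Rap1gap passed only with colon WT arrays left out, as given above. Ern2 differed by -0.85 in stomach and -0.81 in colon. Clca1, Fcgbp, Klk1 and Spink4 differed by -1.28, -2.28, -2.12 and -1.0 in stomach, while in colon, where they were far brighter, they differed by 0.02, -0.18, -0.35 and -0.34. For Ccl20 the values were -2.07 in stomach and 0.10 in colon, a tissue difference of -2.17 (SE 0.45, limma unadjusted p = 0.000817) that was not past the adjusted threshold. Ccl20 was named for its small stomach p, which can likewise enlarge the difference.

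**Figure D5:**
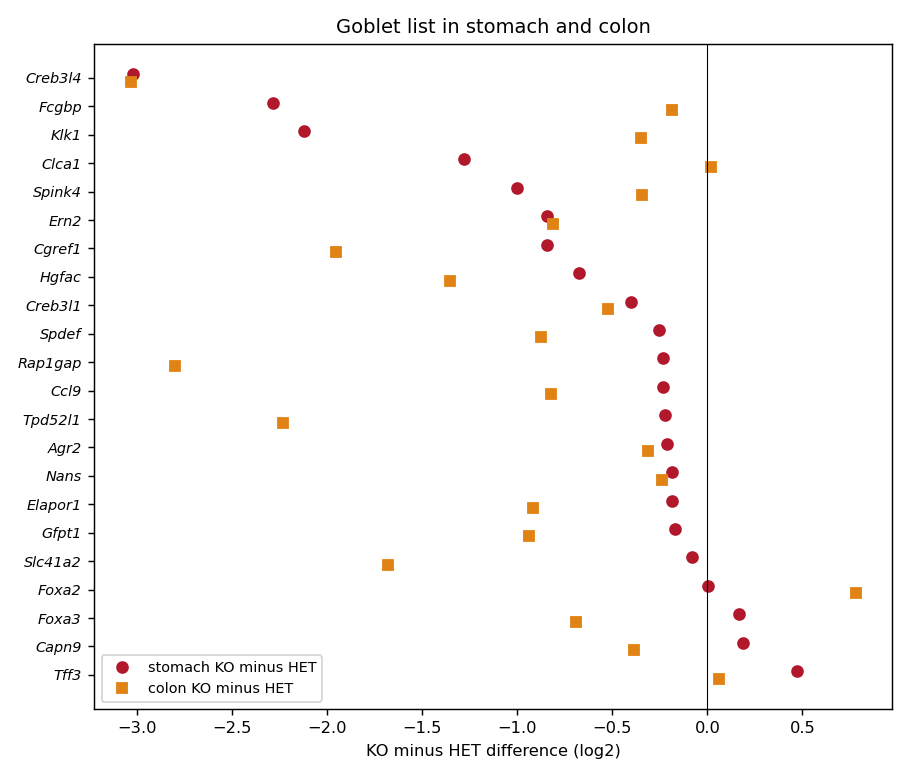
KO minus HET difference (horizontal axis, log2) of the 22 goblet list genes tested in stomach, ordered by their stomach value, with red circles for stomach and orange squares for colon. Creb3l4 has -3.02 in stomach and -3.03 in colon, whereas Rap1gap and Tpd52l1 have -0.24 and -0.22 in stomach against -2.80 and -2.23 in colon.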

How the data were processed

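Expression was measured on 12 Affymetrix mouse expression arrays, 2 in each of 6 groups, per the labels. The deposited values are linear intensities per probe set that the authors scaled to a trimmed mean of 500.1 on each array. Per the submitters' processing notes, MAS5 was used for 9 arrays and RMA for 3 (both stomach KO arrays and colon WT 1), with versions not given in the sources used here. Of 22626 probe sets other than controls, 18003 had 1 gene, 287 had several and 4336 had none in the platform annotation, and each of 11807 genes was read by its brightest probe set.

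Values were taken as log2(intensity + 16) and quantile normalized. Genes reaching the 40th percentile (6.53, an intensity of 76.5) in at least 2 of 6 stomach arrays were tested. A model with 1 mean per group over all 12 arrays was fitted (R 4.3.3, limma 3.58.1) with a trend on intensity, 6 residual and 3.47 prior degrees of freedom, and Benjamini-Hochberg adjustment at 0.05. Their number, not depth, limits the precision of arrays. "At least" is used where 1 group mean lay below the filter level, which then stood in for it. The code was tested on simulated data. Figures used Python 3.11.15 with matplotlib 3.10.9.

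The members and the 33 gene lists were chosen with earlier results of these data known, and lists were described by counts and medians without a test. The rule for named genes took Spdef, Creb3l4, the 10 genes with the smallest p, the 6 largest differences in each direction without overlap, up to 3 members per list with the largest differences without overlap, and the defining markers of lists. Other list members were named after their values were seen. The alternatives tried were no quantile normalization, stomach normalized or fitted alone, offsets of 1 and 64, other filters, no trend, every probe set, a replicate block and arrays left out.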

Additional observations from a re-analysis of the deposited data

How the results depend on the processing

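Creb3l4 was lower in KO under all 17 alternatives, and its call was lost in 6 of them. Its difference was -3.05 with the deposited values (limma adjusted p = 0.0531), -2.15 with an offset of 64 (adjusted p = 0.083) and -3.02 with the replicate block (adjusted p = 0.0966). Leaving out each stomach KO or HET array gave -3.34 to -2.70. The adjusted p ranged from 0.000993 to 0.259 over all alternatives, and the cause was not tested.

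The count of called genes, 1, was 0 with the deposited values, with an offset of 64 and with the replicate block, and 0 to 21 when arrays were left out. Without KO 1 the gene called was Atp5md and not Creb3l4, and without HET 2 the 21 were all lower in KO. Counts of large differences were followed as an alternative chosen after seeing the data. The 77 genes lower by at least 1 became 177 without a filter, where 11807 genes were tested, and 70 to 110 with arrays left out. The 4 higher ones became 14 with an offset of 1, 1 with an offset of 64, 78 without a filter, 2 with a filter at the array median, 13 with every probe set and 4 to 30 with arrays left out. The count of tissue differences, 0, became 1 without KO 1 (Atp5md) or HET 2 (Dmkn) and 2 without colon WT 1, colon WT 2 or both, a range of 0 to 2 with arrays left out.

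Of 73 single genes followed, 72 kept their direction. Cblif, at -0.06, was reversed to 0.00722 with the deposited values. The squamous median ranged from -3.62 to -0.78. Same-numbered arrays did not deviate together (correlation of deviations 0.00209 for KO and HET), so the numbers were not read as pairs.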

Other observations

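Genes of dividing cells and immediate-early genes lay above both HET arrays more often than below them in KO stomach, without a call. Of 25 tested proliferation genes, 8 lay above both HET arrays and 1 below both, against 18.6% and 13.5% of all genes, with a median of 0.14. The mitotic checkpoint kinase Bub1 had 7.01 and 7.28 in the KO arrays, against 6.80 and 5.94 in the HET arrays, a difference of 0.78. Its other probe set gave -0.09. The mitotic kinase Plk1 differed by 0.59 and the topoisomerase Top2a by 0.58, which the other Top2a probe set gave as -0.14. The proliferation marker Mki67 overlapped, with 9.34 and 9.06 in the KO arrays, against 9.11 and 9.06 in the HET arrays.

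Of 17 immediate-early genes, which respond within minutes to hours to growth factors, stress or tissue handling, 9 lay above both HET arrays and 0 below, beside 18.6% and 13.5% of all genes, with a median of 0.25. Fos, a subunit of the AP-1 factor, had 10.76 and 11.27 in the KO arrays, against 10.50 and 10.26 in the HET arrays, with 10.15 and 10.69 in the WT arrays. Its KO arrays were the highest of the 6, with a difference of 0.63 (SE 0.75). Ccn1, a matricellular protein, had 7.19 and 7.53 in the KO arrays, against 6.82 and 6.88 in the HET arrays. Atf3, a stress-induced factor, differed by 0.44 without overlap, and Egr1 by 0.65 with overlap. None of these genes passed the limma threshold. Of stem and progenitor genes, 2 of 10 were lower and 0 higher without overlap (13.5% and 18.6% of all genes), with a median of -0.11. The lower ones were Lrig1, an inhibitor of ERBB signals, at -0.29, which its other probe set gave as 0.08, and the ephrin receptor Ephb3 at -0.21. The progenitor factor Sox9 differed by -0.05. Lgr5, the antral stem cell receptor, read 7.63 and 7.82 in the KO arrays, against 7.62 and 7.88 in the HET arrays. Of the transcription factors of regional identity, Klf5 and Hnf4a lay above both HET arrays, at 0.29 and 0.28. The other probe sets of Hnf4a gave -0.25, 0.11 and -0.28. Sox2 differed by -0.11, and the antral factor Pdx1 was under the filter.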
